A study of Sus scrofa with 21 samples.

Results

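The comparison described here sets 9 libraries taken with a 3D-printed microbrush against 4 libraries taken with a bare Nitinol wire, 13 of the 21 libraries in the series. Members were chosen by the device named in the labels. The remaining microbrush library, microbrush 4, was left out because it held counts for only 3831 genes, under a minimum of 5000. The series tested an endovascular device meant to pick up endothelial cells in pigs, and the wire without a brush was its negative control. Both devices were used in pigs 243K and 248K and in the kidney and the liver, so the libraries fall into 4 vessels, here meaning 4 combinations of pig and organ. Each vessel gave 1 wire library: wire 1 came from the liver of 243K, wire 2 from the kidney of 248K, wire 3 from the liver of 248K and wire 4 from the kidney of 243K. The brush libraries were numbers 2, 5 and 10 (243K, kidney), 6 and 9 (243K, liver), 1 and 3 (248K, kidney), and 7 and 8 (248K, liver). The labels name no genotype, age or treatment for these pigs. Aorta (4 libraries, another pig) and whole blood (3 libraries) made up the rest of the series. With 2 pigs and several libraries from each, the p-values below measure how libraries vary and not how animals vary.

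The wall of an artery is built in layers. Endothelial cells line the lumen, smooth muscle cells that contract through myosin and actin form the middle layer, and fibroblasts outside it lay down collagen. Pericytes wrap the smallest vessels, and elastic fibres of elastin and fibrillin run between the muscle layers. Blood on a device brings RNA of red cells, which carry haemoglobin transcripts while young, and of platelets, which keep RNA from their parent megakaryocytes. Nitinol is an alloy of nickel and titanium used for guidewires.

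Libraries differed in depth and in the number of genes found. Summed estimated counts lay between 1144932 and 10188552 for the brush and between 1946286 and 11128400 for the wire. At an equal depth of 1000000 counts, 10748 to 19534 genes were found in the brush libraries. The wires gave 14955, 9394, 8891 and 17644 genes in order, so both wires of pig 248K had far fewer genes than both wires of pig 243K. Brush libraries averaged 16730 ± 3050 genes (SD, n = 9) and wires 12720 ± 4280 (n = 4), a difference of 4007 (exact two-sided permutation p = 0.0783, adjusted over 5 library measures 0.0979). Per vessel the difference was 171 and -3056 in the kidney and liver of 243K, and 8688 and 9679 in those of 248K. The 100 highest genes took 41.2% ± 16.7 of brush counts and 61.2% ± 10.7 of wire counts (exact permutation p = 0.0559, adjusted 0.0932). A pair of identifiers without a name in the gene table used here took 2.66% to 38.5% of counts on the brush and 26.6% to 49.2% on the wires. Microbrush 6, wire 2 and wire 3 each had counts for under 13000 genes, and a fit without them, chosen after seeing the data, is given beside the list counts and beside named genes that it moved far. In that fit 617 of 17470 genes had an unadjusted p under 0.05 toward the brush (3.53%) and 344 toward the wire (1.97%). Pig and these gene-poor wires cannot be told apart, since both came from 248K.

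**Figure D1:**
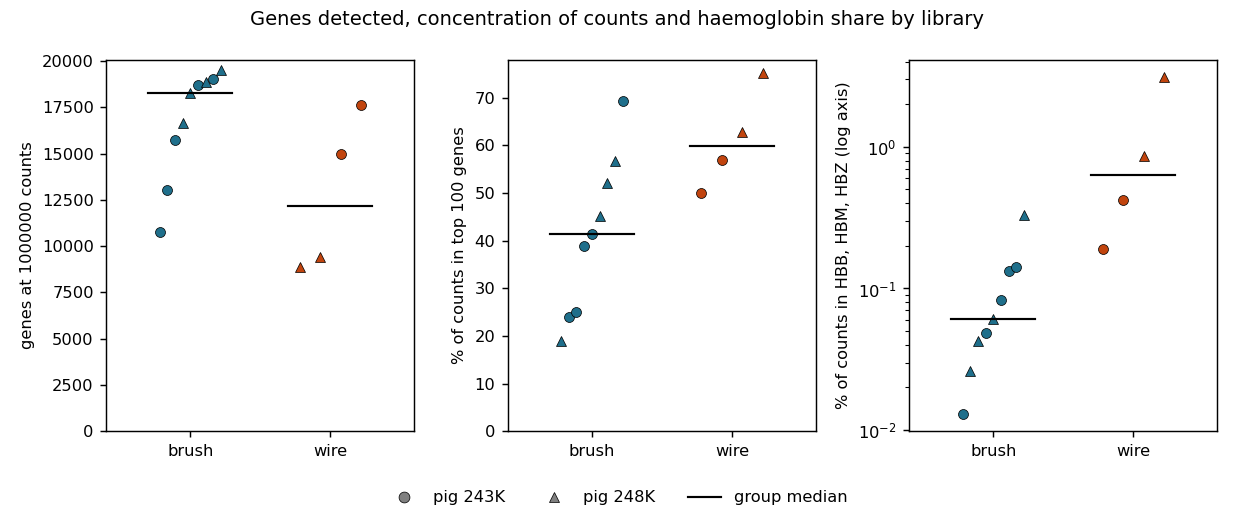
Each point is a library (circles, pig 243K; triangles, pig 248K) and each bar a group median: genes found at 1000000 counts, percent of counts in the 100 highest genes, and percent of counts in HBB, HBM and HBZ on a log axis. Wires 2 and 3, both of pig 248K, held the fewest genes of the 13 libraries, and the wires lay higher in haemoglobin than all brush libraries except microbrush 1.

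The brush libraries averaged higher shares of counts in smooth muscle, mural and collagen genes than the wires. The wires averaged higher shares in red cell genes, while fold changes of classical endothelial genes lay on both sides of 0. These differences were large but varied several-fold between libraries of 1 device, and no single gene passed the test across all genes. Shares are relative to a library's other counts, and the amount of RNA on each device was not compared. Of 16477 genes tested with edgeR's quasi-likelihood test, 0 passed a Benjamini-Hochberg adjusted p of 0.05 in either direction (0%), and the smallest adjusted p was 0.59. At an unadjusted p under 0.05 there were 703 genes higher on the brush (4.27%) and 98 lower (0.595%). No gene passed with limma voom, where 1271 lay under an unadjusted p of 0.05. By DESeq2, 244 genes were called higher (1.49%) and 21 lower (0.129%) of the 16328 to which it gave an adjusted p. Fitted fold changes were positive for 66.4% of genes, with a median of 0.37 on the log2 scale. That median moved to 0.44 with RLE scaling and to 0.91 with library totals alone, where 83.1% of genes were positive, so a list's median is read beside it. In all 9 brush libraries 86 genes lay above all 4 wires (0.522%), and 9 lay below all of them (0.0546%). These counts depended on single wires: without wire 4 the number above was 588, without wire 3 the number below was 50, and without microbrush 6, wire 2 and wire 3 they were 542 and 454. The brush mean was above the wire in all 4 vessels for 2282 genes (13.8%) and below it for 286 (1.74%).

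Smooth muscle genes lay higher on the brush than on the wires. Of 27 listed genes measured, 26 had a positive fold change, 18 had an unadjusted p under 0.05 toward the brush and 0 toward the wire, 21 lay higher in all 4 vessels, and 12 were called by DESeq2. Their median log2 fold change was 3.36, against 0.37 for all genes. Over all genes tested, 66.4% had a positive fold change and 4.27% an unadjusted p under 0.05 toward the brush. The shares higher in all 4 vessels and called higher by DESeq2 were 13.8% and 1.49%. When microbrush 6 and wires 2 and 3 were left out, 13 of 27 had an unadjusted p under 0.05 toward the brush and 0 toward the wire, against 3.53% and 1.97% of all genes in that fit. The median was then 3.05, against 0.11 for all 17470 genes. In these bulk libraries fewer cells of a type and less RNA per cell cannot be told apart.

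MYH11, the smooth muscle myosin heavy chain (ENSSSCG00000000146, chromosome 3, 7002667 to 7143093 in Sscrofa11.1), ran from 499 counts per 1000000 counts after TMM scaling (CPM) in microbrush 6 over a median of 15210 to 72640 in microbrush 5. In wires 1 to 4 it was at 834, 267, 89.6 and 41.4 CPM. Brush libraries 6 and 8 (665 CPM) fell within the range of the wires, and the other 7 lay above all of them. Group means were 24460 ± 27770 CPM (SD, n = 9) and 308 ± 364 (n = 4), with a log2 fold change of 6.31 ± 1.82 (SE) and an adjusted p of 0.59 in edgeR. Per vessel the log2 difference in mean CPM plus 1 was 9.46 and 5.25 in the kidney and liver of 243K and 6.05 and 7.43 in those of 248K. ACTA2, the actin of contractile smooth muscle, ran from 80.5 CPM in microbrush 8 over 1932 to 11290 in microbrush 9, against 128, 17.97, 63.2 and 29.4 on the wires. Here too 7 of 9 brush libraries lay above all wires, and the log2 fold change was 5.91 ± 1.71. LMOD1, which nucleates actin filaments in muscle, had a log2 fold change of 5.30 ± 1.5 and lay above all wires in 8 of 9 brush libraries. ITGA7, the laminin-binding integrin of muscle, had the highest fold change of the list at 6.93 ± 1.77, with 2.002 to 514 CPM on the brush and 1.48, 3.59, 0 and 0.55 on the wires.

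Not all members of the list lay far toward the brush. MYL9, a myosin light chain also made by platelets, was at 181 to 7430 CPM on the brush and at 1955, 1791, 5953 and 1505 CPM on the wires. Its log2 fold change was -0.41, and its highest brush value came from microbrush 6. CALD1, which binds actin and myosin in many cells, had 0.62 and CNN2, a calponin of non-muscle cells, 0.61. SMTNL2 had 0.52 and PDLIM7 0.49, while TPM1, MYLK and FLNA had 2.18, 2.29 and 1.47. These members were picked after their values were seen, and a split by restriction to muscle was not tested. MYH11 gave 37.4% to 46.7% of the smooth muscle counts in 7 brush libraries, a share that also depends on transcript length. In microbrush 6 and 8 the leading gene was CALD1 (51.3% and 41.5%), followed by MYL9. On the wires CALD1 led 3 libraries and FLNA, a filamin, led wire 2.

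**Figure D2:**
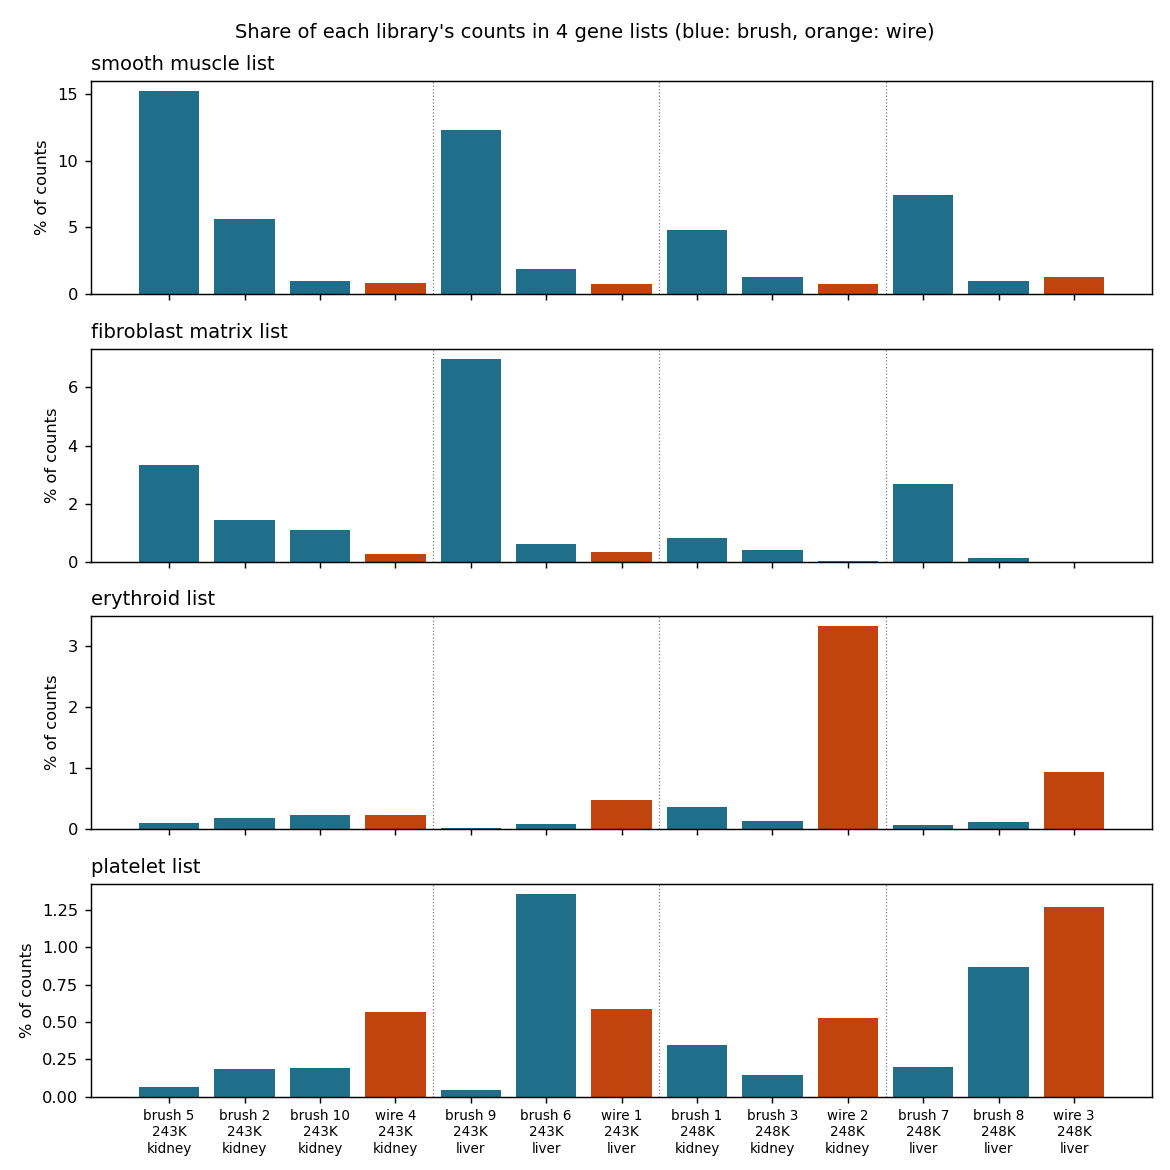
Bars give the percent of each library's counts in the smooth muscle, fibroblast matrix, erythroid and platelet lists, with libraries ordered by pig and organ and a dotted line between vessels (blue, brush; orange, wire). Smooth muscle shares ran from 0.962% to 15.2% on the brush and from 0.723% to 1.29% on the wires, and the erythroid share was highest on wire 2 at 3.32%.

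Mural genes shared by pericytes and smooth muscle lay on the same side. Of 13 pericyte genes 11 had a positive fold change, 7 had an unadjusted p under 0.05 and 6 were called by DESeq2, all toward the brush. For all genes the shares were 66.4%, 4.27% and 1.49% in that order. The pericyte median was 2.90, against 0.37 for all genes. Leaving out microbrush 6 and wires 2 and 3 gave 5 of 13 toward the brush (3.53% of all genes), 0 toward the wire and a median of 2.04. PDGFRB, the receptor through which PDGF-BB recruits mural cells (ENSSSCG00000022741, chromosome 2, 151155753 to 151192818), was at 9.38 CPM in microbrush 8 and 361 in microbrush 5, with a median of 105.3. The wires held 0.49, 0, 0 and 5.45 CPM, so all 9 brush libraries lay above all wires. The log2 fold change was 6.39 ± 1.49 (adjusted p 0.59 in edgeR, 7.08e-06 in DESeq2), and the vessels gave 4.68, 6.34, 5.997 and 6.06 in the order used above. HEYL, a Notch target of mural cells, was also apart, with 0.86 to 30.8 CPM on the brush and a count in wire 4 alone (0.55 CPM). RGS5, a regulator of G-protein signalling in pericytes and arterial muscle, had a log2 fold change of 4.63 ± 1.59 (adjusted p 0.743), and CSPG4, the NG2 proteoglycan, 3.76 ± 1.27. KCNJ8, a potassium channel subunit of pericytes, had 0.98, TBX18 -0.05 and ANGPT1, the TIE2 ligand, -0.42.

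The fibroblast matrix list held genes far toward the brush and genes near 0, and collagens were among both. Of 22 genes 20 were positive, with a median of 2.79. Toward the brush, 11 had an unadjusted p under 0.05, 13 were higher in all 4 vessels and 7 were called by DESeq2. For all genes the shares were 66.4%, 4.27%, 13.8% and 1.49% in that order. Leaving out the 3 libraries, 7 of 22 had an unadjusted p under 0.05 toward the brush and 2 toward the wire (3.53% and 1.97% of all genes), with a median of 1.91. COL1A1, a chain of type I collagen (ENSSSCG00000036135, chromosome 12, 26379087 to 26397180), ran from 157 CPM in microbrush 8 over 1756 to 25150 in microbrush 9. On the wires it was at 169, 11.98, 18.6 and 49.1 CPM, and only microbrush 8 did not lie above all of them. The log2 fold change was 6.43 ± 1.66, with 6.16, 6.29, 6.77 and 7.73 in the vessels. COL3A1, the type III collagen of vessel walls, ran from 102.2 over 3767 to 26560 CPM, against 153, 63.9, 3.57 and 17.4, with a log2 fold change of 6.81 ± 1.81. COL12A1, a collagen bound to fibril surfaces, was apart between the groups (17.8 to 1876 CPM against 15.8, 0, 1.07 and 14.7). COL6A1 had a log2 fold change of 4.99 ± 1.26. Of genes that are not collagens, DCN, which encodes decorin, had 3.74 ± 1.62, SPARC, a collagen-binding matricellular protein, 3.66 ± 1.62 and FMOD, which encodes fibromodulin, 2.96 ± 1.12. Near or below 0 were the collagen COL14A1 at 0.21 ± 1.11, POSTN, a matricellular protein, at -1.12, MFAP5 at -0.09, the dermatopontin gene DPT at 0.58 and fibronectin (FN1) at 0.65. Without the 3 libraries POSTN was at -2.86, FN1 at -1.50 and DPT at -0.25. FN1 led the list's counts in wires 1, 3 and 4 and in microbrush 6 and 8, and COL3A1 or COL1A1 led it in the other brush libraries.

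Elastic fibre, basement membrane and proteoglycan genes lay higher on the brush by smaller medians. The elastic fibre list had 14 of 15 genes positive, 5 with an unadjusted p under 0.05 and a median of 1.89. Beside each list here, 66.4% of all genes were positive and 4.27% had an unadjusted p under 0.05 toward the brush. ELN, which encodes elastin, was at 165 to 11150 CPM on the brush with a median of 1528, and at 1460, 0, 17.3 and 926 CPM on the wires. Wires 1 and 4 of pig 243K thus held elastin RNA within the brush range, and wires 2 and 3 of pig 248K held almost none. The log2 fold change was 2.32 ± 1.5 (adjusted p 0.999 in edgeR), and 1.08 without microbrush 6 and wires 2 and 3. EMILIN1 and MFAP4, glycoproteins of elastic fibres, had 4.58 ± 1.22 and 4.93 ± 1.46. In the basement membrane list 12 of 13 were positive, 7 with an unadjusted p under 0.05, with a median of 2.52; COL4A2, a type IV collagen chain, had 5.27 ± 1.72 and COL15A1 5.06 ± 1.71. Among 15 proteoglycan and matricellular genes 13 were positive and 6 had an unadjusted p under 0.05, with a median of 2.24. VCAN, which encodes versican, differed little, with 86.4 to 183 CPM on the brush and 122, 17.6, 148 and 110 on the wires (log2 fold change 0.25 ± 0.53). COMP, a matrix protein of tendon and vessel wall, had no count on any wire and 0 to 479 CPM on the brush, at least 395-fold higher against a limit of 3 counts over the 4 wires. Its brush median was 12.6 CPM, and without microbrush 5, the highest library, the bound was 165-fold. In the fit without the 3 gene-poor libraries, genes with an unadjusted p under 0.05 toward the brush numbered 3 of 15 elastic fibre, 2 of 13 basement membrane and 3 of 15 proteoglycan genes (3.53% of all genes). Toward the wire there were 1, 1 and 0 (1.97% of all genes), and the medians were 1.18, 1.74 and 1.57.

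**Figure D3:**
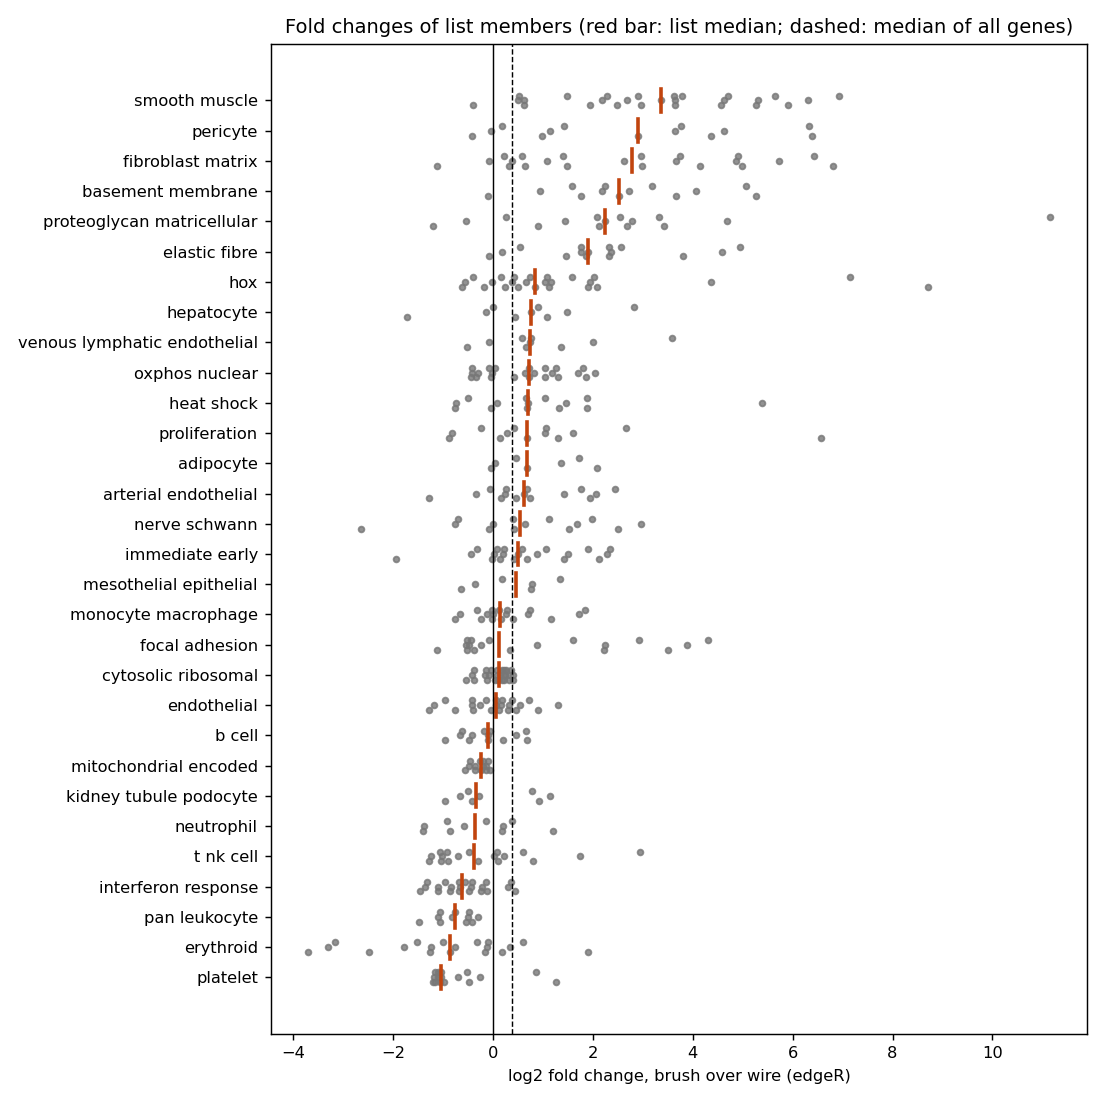
Each grey point is a listed gene's log2 fold change, brush over wire, from edgeR over all 13 libraries; red bars are list medians, the dashed line is the median of all genes (0.37) and the solid line is 0. Smooth muscle (3.36), pericyte (2.90) and fibroblast matrix (2.79) lists lay farthest toward the brush and platelet (-1.05) and erythroid (-0.87) lists farthest toward the wire; points of genes without a wire count, such as COMP, have no fixed size.

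The genes with the smallest p toward the brush were not all wall markers. WFDC1, a secreted protein with a whey acidic protein domain (ENSSSCG00000023837, chromosome 6, 4333729 to 4365122), was found at 1.97 to 87.1 CPM on the brush, with a median of 23.9. On the wires it had 1 count in all, in wire 4 (0.55 CPM), and the groups did not overlap. FIBIN, a secreted protein, lacked counts in microbrush 6 and in wires 1 to 3, and reached 120 CPM in microbrush 9. IGF1R, the receptor for insulin-like growth factor 1 (ENSSSCG00000030560, chromosome 1, 137383623 to 137691038), gave a difference of like size in each vessel. It was at 48.9 to 406 CPM on the brush (median 116.9) and at 17.01, 12.8, 15.2 and 25.1 CPM on the wires. Its log2 fold change was 3.06 ± 0.70, and the vessels gave 2.54, 3.70, 3.07 and 2.38. DMPK, a kinase of muscle, had 4.49 ± 1.12, ADCY5, an adenylyl cyclase, 5.28 ± 1.37, and RAMP1, a subunit of the CGRP receptor, 6.24 ± 1.64. CPED1 had 4.12 ± 1.09 and was at 9.61 to 559 CPM on the brush against 2.96 to 12.5 on the wires. JMJD8 had no count on any wire and was at least 60.5-fold higher on the brush.

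In all, 75 of 16477 tested genes had no count on any wire, 26 of them with a symbol, and 7 of the 75 had a count in every brush library. These genes passed the filter on low counts through the brush libraries alone. None of the tested genes lacked counts in all brush libraries, but the filter treated the devices unequally. It asked for enough counts in as many libraries as the smaller group held. A gene absent from the brush had to reach that on every wire, and a gene absent from the wires only in part of the brush libraries. The numbers for the devices therefore cannot be compared. The homeobox gene HOXA10, which marks caudal position, was at 0 to 58.2 CPM on the brush and at least 72.6-fold higher. It had a count in 7 brush libraries and none in microbrush 6 and 9. FGFBP3, which binds fibroblast growth factors, was at least 63.7-fold higher, and AURKB, a mitotic kinase, at least 16.2-fold. The 86 genes whose groups did not overlap were picked on these same libraries, so DESeq2 calls among them are no separate support. Of these genes 68 had a symbol and 58 were called by DESeq2, which called 1.49% of all genes higher. They included LOXL2, a collagen cross-linking enzyme, LAMB3, a laminin chain, FZD2, a Wnt receptor, LGR4, an R-spondin receptor, MERTK, a receptor for dying cells, and ABI3BP and ECM2 of the matrix; these were chosen after their values were seen.

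Red cell genes lay on the wire side. Of 19 erythroid genes measured 15 had a negative fold change, 5 had an unadjusted p under 0.05 toward the wire and 0 toward the brush, and 4 were called by DESeq2. The median was -0.87, and -0.25 with library totals alone, against 0.37 and 0.91 for all genes. Of all genes, 66.4% were positive, 0.595% had an unadjusted p under 0.05 toward the wire and 0.129% were called lower by DESeq2. HBB, the haemoglobin beta chain (ENSSSCG00000014725, chromosome 9, 4800683 to 4801941), ran from 141 CPM in microbrush 9 over 674 to 5168 in microbrush 1. On the wires it was at 4533, 32180, 16590 and 1939 CPM, and 8 of 9 brush libraries lay below all wires. Means were 1051 ± 1572 CPM (SD, n = 9) and 13810 ± 13810 (n = 4), with a log2 fold change of -3.72 ± 1 (adjusted p 0.59). The vessels gave -1.37, -3.05, -3.59 and -5.45. Without microbrush 6 and wires 2 and 3 the fold change was -1.62, and the list had 1 gene with an unadjusted p under 0.05 toward the wire (1.97% of all genes), 0 toward the brush and a median of -0.83.

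ALAS2, the erythroid enzyme that starts haem synthesis (ENSSSCG00000012347, X chromosome, 47871519 to 47896041), ran from 7.58 CPM in microbrush 9 over 39.0 to 201 in microbrush 1. The wires were at 283, 1014, 834 and 99.8 CPM, and 7 of 9 brush libraries lay below all of them. Its log2 fold change was -3.18 ± 0.80, and -1.94 without microbrush 6 and wires 2 and 3. HBM, a haemoglobin alpha-like chain, had -2.50 ± 0.67, and DMTN, dematin of the red cell membrane skeleton, -3.32 ± 0.81. Without those 3 libraries HBM had -1.35 and DMTN -0.83. Not all erythroid genes followed: ANK1, the ankyrin of the red cell membrane, had 0.18 (-0.15 without the 3 libraries) and KLF1, the erythroid transcription factor, -0.12.

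As a share of counts, the haemoglobin genes HBB, HBM and HBZ took 0.0129% to 0.328% on the brush, with a median of 0.061%. They took 0.418%, 3.13%, 0.856% and 0.19% on wires 1 to 4, where the Wilson 95% interval for wire 2 was 3.1% to 3.15%. The means of 0.0973% ± 0.097 (SD, n = 9) and 1.15% ± 1.35 (n = 4) differed by -1.05 percentage points (exact two-sided permutation p = 0.0028, adjusted over 5 measures 0.014). Exchanging libraries only within vessels gave an exact permutation p of 0.00926, and the wire was higher in 4 of 4 vessels, with a brush minus wire difference between -0.0716 points in the kidney of 243K and -2.94 in the kidney of 248K. Without wire 2 the difference was -0.39 points.

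Other genes on the wire side were mixed in kind. SNCG, which encodes gamma-synuclein, was at 12.1 to 149 CPM on the brush and at 171, 454, 332 and 83.4 on the wires, with a log2 fold change of -2.65 ± 0.61, and -1.56 without microbrush 6 and wires 2 and 3. TENT5C, a poly(A) polymerase known in red cell precursors and plasma cells, had -3.19 ± 0.76, and SLC25A39, a mitochondrial carrier of glutathione, -2.67 ± 0.70. Without those 3 libraries they had -0.44 and -0.84. HMMR, the hyaluronan receptor of dividing cells, had -2.41 ± 0.62, ATAD2, a chromatin ATPase, -1.69 ± 0.50, and ACOT8, a peroxisomal thioesterase, -3.10 ± 0.92. These had -1.37, -0.89 and -3.06 without the 3 libraries. SOCS3, the inhibitor of cytokine signalling, was at 4.64 to 74.4 CPM on the brush and at 59.9, 90.7, 114.4 and 94.8 on the wires. All wires were thus close together, 8 of 9 brush libraries lay below them, and the log2 fold change was -1.95 ± 0.59 (adjusted p 0.608). The 9 genes below all wires in all brush libraries included SNORA74, LPIN2, TTK, MARCHF8, KIF11, HEXIM2 and SLC22A23. TTK and KIF11 act in mitosis. The proliferation list as a whole had 10 of 13 genes positive (76.9%, near the 66.4% of all genes), with a median of 0.67. Without the 3 libraries its median was 0.19, against 0.11 for all genes.

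Genes of endothelium, which the device was made to sample, did not lie higher on the brush as a group. Of 23 measured genes 13 had a positive fold change (66.4% of all genes did). None passed in edgeR or DESeq2, and at an unadjusted p under 0.05 edgeR gave 0 toward the brush and 1 toward the wire. Their median was 0.07, under the 0.37 of all genes. PECAM1, a junction protein of endothelium that platelets and leukocytes also carry, was at 48.1 CPM in microbrush 2 and 961 in microbrush 6, with a median of 78.4. The wires were at 195, 93.5, 418 and 347 CPM, so 5 of 9 brush libraries lay below all wires and only microbrush 6 lay above them. Its log2 fold change was -0.26 ± 0.80 (adjusted p 0.999 in edgeR). CDH5, the cadherin of endothelial junctions, was at 11.4 to 143 CPM on the brush (median 21.8), again highest in microbrush 6. On the wires it was at 47.6, 3.59, 0.18 and 61.6 CPM, higher on both wires of 243K than in 8 of 9 brush libraries and lower on both wires of 248K than in all of them. The log2 fold change was 0.31 ± 0.95, and -1.38 without microbrush 6 and wires 2 and 3. PLVAP, of endothelial fenestrae, was at 11.14 to 84.4 CPM on the brush and at 141, 73.5, 177 and 67.6 on the wires (log2 fold change -1.29 ± 0.51, adjusted p 0.861). KDR, the main VEGF receptor, had -1.18 ± 1.06.

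The endothelial list took 0.0485% to 0.167% of brush counts and 0.117%, 0.0389%, 0.0688% and 0.179% of wire counts. In the fit without microbrush 6 and wires 2 and 3, the endothelial median was -1.08. Of 23 genes 7 had an unadjusted p under 0.05 toward the wire (1.97% of all genes) and 0 toward the brush in that fit. It kept wires of 243K alone and dropped the brush library highest in PECAM1 and CDH5. How far this moved the list was not tested. Among 15 arterial genes 12 were positive (66.4% of all genes) with a median of 0.61. HEY2, a Notch target of arterial cells, had 2.44 ± 0.78 (adjusted p 0.671) and lay above all wires in 8 of 9 brush libraries, with 16.8 to 243 CPM against 18.7, 12.4, 6.07 and 19.6. Without the 3 libraries 0 of 15 arterial genes had an unadjusted p under 0.05 toward the brush and 1 toward the wire, and the arterial median was -0.18. Of 9 venous and lymphatic genes 7 were positive (66.4% of all genes), with a median of 0.74.

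**Figure D4:**
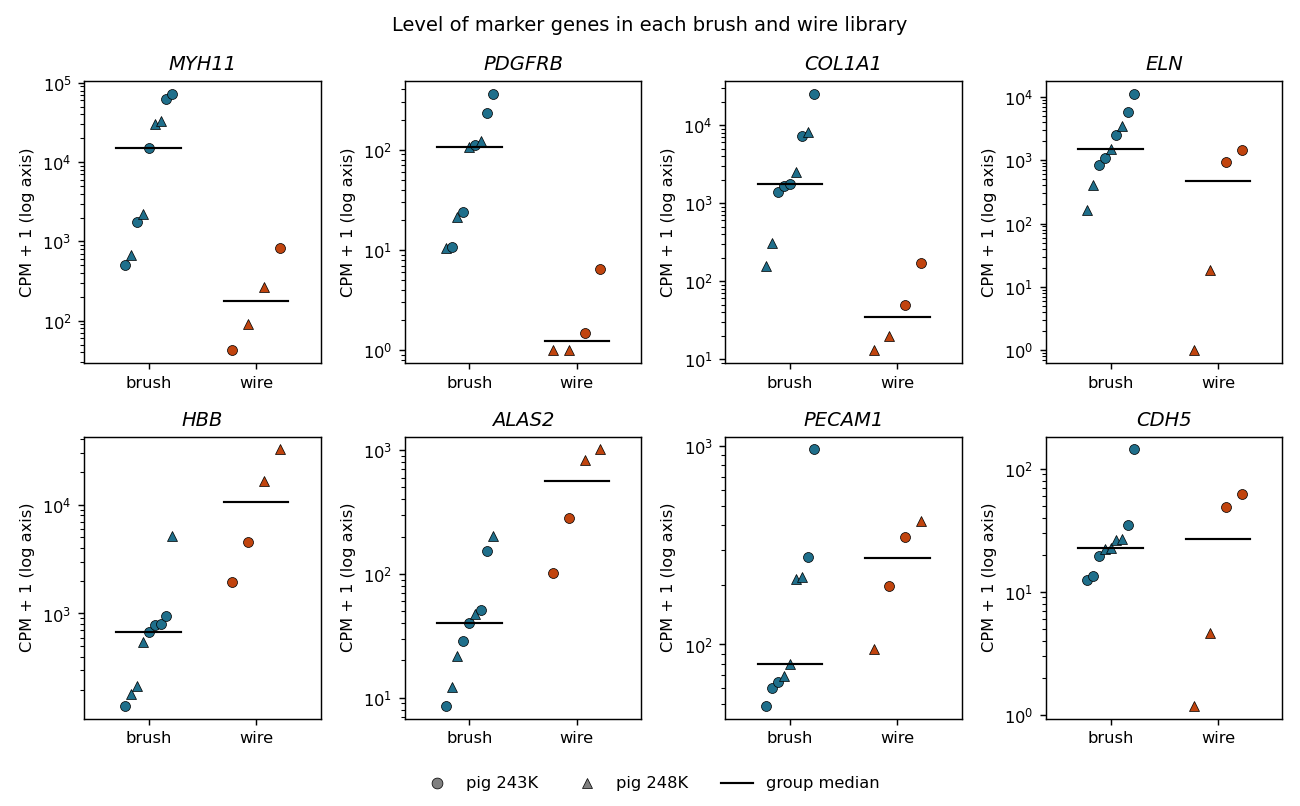
Level of 8 genes in each library as CPM plus 1 on log axes (circles, pig 243K; triangles, pig 248K; bars, group medians). PDGFRB did not overlap between groups, MYH11 and COL1A1 overlapped through microbrush 6 and 8 or microbrush 8 alone, HBB overlapped through microbrush 1, and PECAM1 and CDH5 overlapped throughout.

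Platelet genes lay toward the wire, with 14 of 16 negative and a median of -1.05, but 0 had an unadjusted p under 0.05. Fold changes were positive for 66.4% of all genes. The list took 0.589%, 0.53%, 1.27% and 0.569% of wire counts and under 0.35% in 7 brush libraries. Microbrush 6 (1.36%) and microbrush 8 (0.868%) were within or above the wire range. PPBP, a platelet chemokine, was at 2364 CPM in microbrush 6 and at 3.71 in microbrush 9, against 468, 90.7, 1321 and 382 on the wires. The brush libraries with the highest platelet shares were thus the same 2 in which MYH11 was lowest; the part of platelet RNA in the comparison was not tested.

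All 11 pan-leukocyte genes had negative fold changes, where 66.4% of all genes tested had positive ones. Their median was -0.76 (-0.19 with library totals alone). PTPRC, the common leukocyte antigen CD45, was at 49.7 to 745 CPM on the brush (median 159) and at 398, 453, 1036 and 479 on the wires. LCP1, an actin bundler of leukocytes, was the 1 member with an unadjusted p under 0.05, at -1.49 ± 0.62 (adjusted p 0.904). Medians were -0.37 for 10 neutrophil genes, -0.39 for 18 T and NK cell genes and -0.11 for 13 B cell genes. With library totals alone these became 0.235, 0.225 and 0.48, still under the 0.91 of all genes. The 18 monocyte and macrophage genes had a median of 0.14 in the main fit. Of 22 interferon response genes 19 were negative, with a median of -0.62 (-0.30 with library totals alone). HERC5, an ISG15 ligase, had -1.32 ± 0.53 and IFIT1, which binds viral RNA, -1.47 ± 0.70. Without microbrush 6 and wires 2 and 3, 7 of 22 interferon genes had an unadjusted p under 0.05 toward the wire (1.97% of all genes), 0 toward the brush, and the median was -1.05.

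Lists of neighbouring tissue, stress, body position and the basic cell machinery had medians from -0.35 to 0.84 in the fit of all 13 libraries. In that fit 66.4% of all genes were positive, with a median of 0.37. Hepatocyte genes had a median of 0.76 (6 of 9 positive), kidney tubule and podocyte genes -0.35 (3 of 8), mesothelial and epithelial genes 0.46 (4 of 6), adipocyte genes 0.67 (6 of 7) and nerve genes 0.54 (9 of 14). The kidney median was 0.20 with library totals and 0.11 with the vessel as a block, which put the mesothelial and epithelial median at -0.09. Immediate early genes had a median of 0.49, heat shock genes 0.69 and nuclear genes of oxidative phosphorylation 0.71. In the heat shock list CRYAB, a small heat shock protein of muscle, stood out with 5.38 ± 1.66 (adjusted p 0.645). Cytosolic ribosomal genes had a median of 0.12, which became -0.15 with RLE scaling. The 13 mitochondrially encoded genes had a median of -0.25, and 0.14 with library totals alone. Of 25 HOX genes, which mark body position, 20 were positive with a median of 0.84. Among 18 focal adhesion genes 9 were positive, with a median of 0.12 and -0.14 with RLE scaling. Within it TNS1, a tensin, had 3.87 ± 1.33, and PARVB, a parvin of platelets and leukocytes, -1.13 ± 0.95. Over all genes the median was 0.91 with library totals, 0.44 with RLE scaling and 0.41 with the vessel as a block.

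The brush minus wire difference itself differed between the pigs. In a fit with device, pig and their product, 691 genes passed the test of the product (edgeR, 4.19% of 16477), all with a larger difference in 248K and 0 with a smaller one. Of these, 602 (87.1%) had no count in wires 2 and 3, against 4251 (25.8%) of all genes tested. Only 0.734% of genes tested had no count in wires 1 and 4. The count was 87 without wire 1 and close to that without wire 4, 333 without wire 2, 1021 without wire 3 and 1311 without microbrush 6. It was 203 with RLE scaling. In 248K alone, with 4 brush and 2 wire libraries, 4726 of 16662 genes rose on the brush (28.4%) and 17 fell (0.102%). Of the higher ones 4006 (84.8%) had no count on either wire. In 243K alone, with 5 brush and 2 wire libraries, 0 of 16808 passed in edgeR and 275 had an unadjusted p under 0.05, 244 toward the brush and 31 toward the wire. The interaction with organ gave 0 genes in edgeR (651 at an unadjusted p under 0.05) and 29 in DESeq2.

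Endothelial genes were among those that passed the test of the product, and the examples below had no count on the gene-poor wires 2 and 3. ERG, a transcription factor of endothelium, was at 29.1 to 82.3 CPM in every brush library and at 56.7 and 95.4 on wires 1 and 4, but had no count on wires 2 and 3. Brush libraries of 248K averaged 42.3 CPM, where 3 counts over its wires would be 0.37 CPM, and edgeR's test of the interaction gave an adjusted p of 0.0117. TRABD2B, a metalloprotease that acts on Wnt proteins (19.4 to 65.4 CPM; 55.5, 0, 0 and 39.8 on the wires), and CTTNBP2NL, a relative of a cortactin-binding protein (median 63.2 CPM; 71.5, 0, 0 and 51.8), had the same pattern and the same adjusted p. In all 7 of 23 endothelial genes passed (4.19% of all genes), and 10 of the 23 had no count on wires 2 and 3. Of 27 smooth muscle genes 2 passed and 3 had no count there; whether the lists differ in this was not tested.

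The fold changes of the 5 marker genes had the same sign in both pigs. MYH11 had 6.10 in 243K and 6.57 in 248K (interaction adjusted p 0.958 in edgeR), COL1A1 6.15 and 7.52 (0.787), HBB -2.09 and -3.98 (0.693) and ALAS2 -1.48 and -3.71 (0.564). IGF1R had 3.24 and 2.83, and passed in 248K alone (edgeR adjusted p 0.0433). PDGFRB had 5.79 in 243K and was at least 174-fold higher in 248K, whose wires held no count of it. Among genes that fell on the brush in 248K were FECH, the last enzyme of haem synthesis (-2.37 ± 0.75, adjusted p 0.0469 in edgeR), HMMR (-3.26 ± 0.79, 0.0156), ARG1, an arginase of granulocytes and liver (-2.23 ± 0.71, 0.0475), and IFI6, an interferon-induced protein (-3.01 ± 0.83, 0.0264). In 243K FECH had -0.04 and HMMR -0.52, while ARG1 and IFI6 had the other sign at 0.27 and 1.15.

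**Figure D5:**
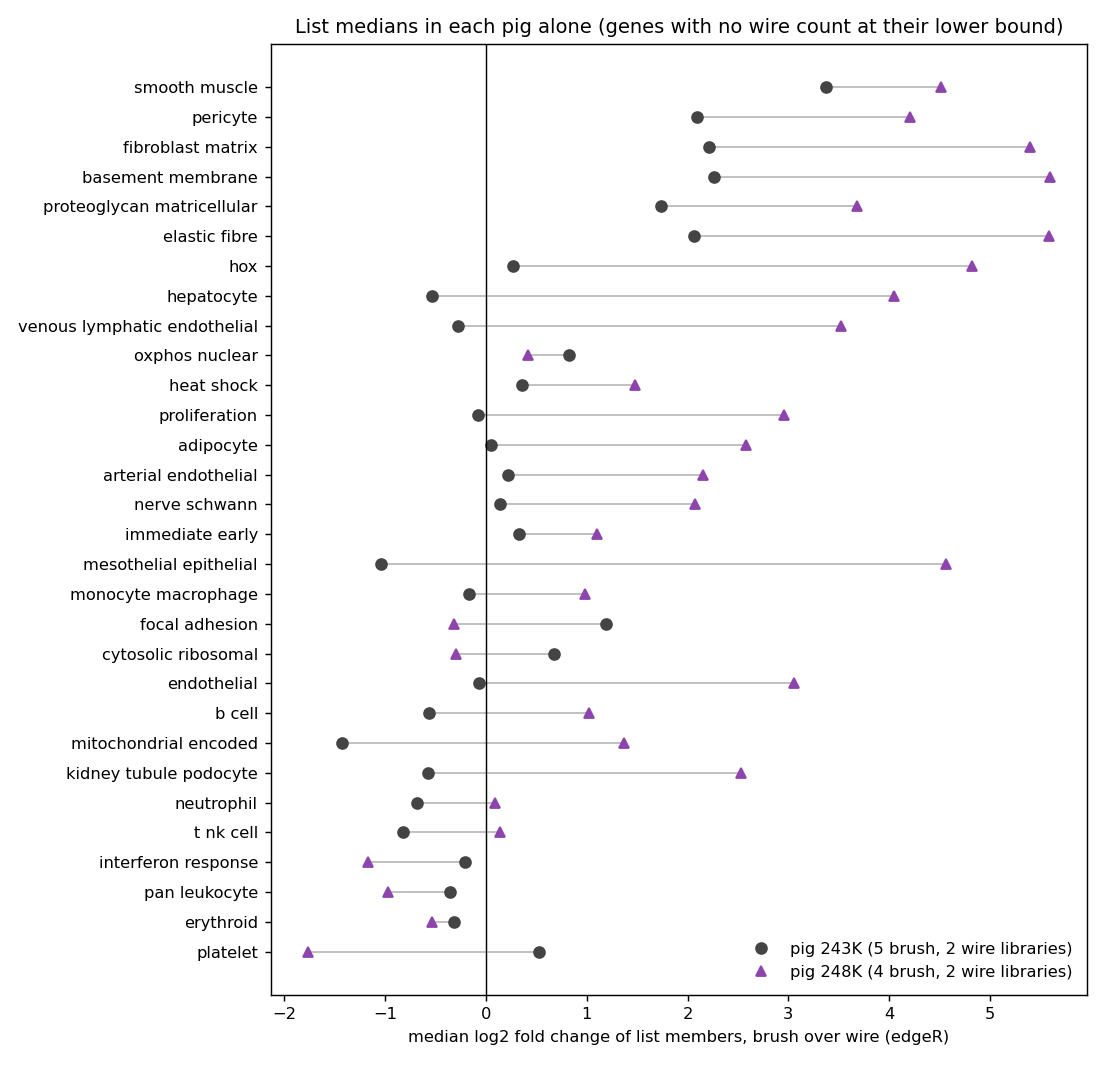
Median log2 fold change of each list, brush over wire, in pig 243K (circles) and pig 248K (triangles), with genes that had no count on that pig's wires set to their lower bound against 3 counts. Smooth muscle medians were 3.37 and 4.52, endothelial medians -0.07 and 3.06, and mitochondrial medians -1.43 and 1.37.

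List medians differed between the pigs in order and in part in sign. In 243K the smooth muscle median was 3.37, the fibroblast matrix median 2.21, the pericyte median 2.09 and the elastic fibre median 2.06, against 0.15 for all genes. In 248K, with genes absent from both wires set to their lower bound, they were 4.52, 5.40, 4.21 and 5.59, against 1.43 for all genes. Lists of other tissue reached the same height there: mesothelial and epithelial genes had 4.56 in 248K and -1.04 in 243K, and hepatocyte genes 4.05 and -0.54, with 3 of 6 and 6 of 9 genes at no count on wires 2 and 3. The endothelial median was -0.07 in 243K and 3.06 in 248K, and the HOX median 0.27 and 4.82. The platelet median was 0.52 in 243K and -1.77 in 248K, and the 13 mitochondrially encoded genes were all lower on the brush in 243K and all higher in 248K.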

How the data were processed

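Bulk RNA sequencing libraries were compared by device, pig and organ as the labels give them. Total RNA came from an RNAdvance Tissue extraction with scaled-down volumes and went into SMARTer Pico libraries, per the labels' protocols. The submitters' processing notes name Salmon, DESeq2 and the build Sscrofa11.1; tool versions, the annotation release and the use of strand are not given in the sources used here. The deposited values are estimated counts per Ensembl gene made by the authors, merged over 21 samples and not scaled; 11.9% were not whole, and counts were rounded before testing. Symbols were those supplied for each Ensembl identifier, and 14692 of 24358 genes had a symbol. Coordinates came from RefSeq for Sscrofa11.1, matched by symbol.

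Genes were kept by filterByExpr (minimum count 10), scaled by TMM and tested with edgeR 4.0.16's robust quasi-likelihood test in R 4.3.3, adjusted by Benjamini-Hochberg over all genes at 0.05. DESeq2 1.42.0, limma 3.58.1 voom with quality weights, other scalings, filters and subsets were alternatives, and equal depth used vegan 2.7.1. Library measures were tested by exact permutation over all 715 ways to assign the devices and over 108 within vessels. Per-vessel differences used a pseudocount of 1 CPM, and a gene at 0 was given a limit of 3 counts. Intervals and limits cover counting error only. The fitting code was tested on simulated data. Named genes were the 12 toward the brush and 10 toward the wire with the smallest p with a symbol and, in the higher group, a mean of 10 CPM or more, 5 markers, the first 2 and up to 4 smallest-p members of each of 30 lists, and 3 per interaction; list members were named further. The comparison, its members and lists were chosen with earlier results of these data known.

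Vessels pair the libraries because each is 1 organ of 1 animal. Brush libraries of the same vessel did not deviate together (mean correlation -0.0758 over 9 pairs; 0.0334 over 27 pairs of different vessels). No 2 of the 13 libraries were copies of each other (chi-square per degree of freedom at least 5.91 in every pair).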

Additional observations from a re-analysis of the deposited data

Results flagged for a closer look

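Of 28 results checked in 56 groups of libraries, 8 values lay far from the rest of their group, and chance marks about 1 in 20 groups. Microbrush 1 held 0.328% of its counts in haemoglobin genes, above the other brush libraries. It also stood apart for 3 genes on a scale of log2(CPM + 1): SNCG at 7.23, TENT5C at 8.08 and DMTN at 5.37. Wire 4 alone of the wires held counts of WFDC1 (0.63), FIBIN (1.06) and RAMP1 (2.09), on the same scale, where the other wires were at 0; WFDC1 rests on 1 count. Wire 2 stood apart for DMTN at 8.48. The difference between brush and wire differed between the pigs for 691 genes by edgeR's test of the interaction.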

How the results depend on the processing

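Across alternatives the number of genes past the threshold was 0 except with DESeq2 (265), counts summed per vessel with the vessel as a replicate block (32), a common fit of all groups (16) and pig 248K alone (4743). Leaving out any 1 library gave 0. With the vessel as a replicate block on single libraries it was 0 (smallest adjusted p 0.793; 883 genes at an unadjusted p under 0.05), and 32 with summed counts. Without microbrush 6, wire 2 and wire 3 the 8 remaining brush libraries faced wires of 243K only, and 0 genes passed (smallest adjusted p 0.872). The interaction with organ gave 29 genes with DESeq2 and 0 to 81 leaving out 1 library (81 without wire 4). That with pig gave 2344 with DESeq2, 203 with RLE scaling, 456 at a minimum count of 50, and 87 to 1311 leaving out 1 library. Genes above all wires in all brush libraries numbered 126 to 588 leaving out 1 wire and 542 without the 3 libraries named; genes below numbered 17 to 50, 454 and, with library totals alone, 5. Genes higher in all 4 vessels numbered 3751 with library totals alone and 2501 without microbrush 6, and genes lower 650 without it. Leaving out 1 library, the difference in haemoglobin share ran from -1.37 to -0.39 points, in the share of the 100 highest genes from -23.7 to -15.3, in genes at equal depth from 2730 to 5648, in genes with a count from 3021 to 5885 and in total counts from -2339000 to 722000 (722000 without wire 3). The difference in genes with a count (4274, exact permutation p 0.0322, adjusted 0.0805) was 2882 with microbrush 4 put back (p 0.346) and kept its value with p 0.0741 when libraries were permuted within vessels. The 23 genes followed through all alternatives kept their direction in each. They were MYH11 and the 12 and 10 genes with the smallest p toward brush and wire in these same data. Genes picked in that way were likely to keep their sign, so this is no separate support. The causes of these shifts were not tested. Alternatives that left out wires or microbrush 6 singly for the interaction and the counts without overlap, or used library totals for the latter, were chosen after seeing the data, and a planned search of promoter motifs was not run. The 4 wires came from 2 pigs, and a gene without a count on a wire was not detectable at that depth, which does not show that it was absent.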
